A study of Arabidopsis thaliana with 12 samples.

Results

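The data described here are the leaf transcriptomes of the *Arabidopsis thaliana* line *rtnlb16-1* under 2 light regimes, long days (LD) and continuous low light (CLL). The comparison takes every *rtnlb16-1* library of the series, 6 of 12, and tests 30388 of the 37336 genes in the table, those with reads in at least 1 of the 12 libraries. The other 6 libraries are from Col-0, the wild type of the same background, under the same regimes. They share the estimate of the spread in the fit, and their own change between the regimes is given for some genes and lists. They are tested against *rtnlb16-1* only through the interaction of genotype and light. All plants grew on soil, mature leaves were taken at 4 weeks, and at least 3 plants were pooled for a library. For LD the labels give 16 h of light and 8 h of dark at about 80 µmol per s and m2, and for CLL continuous light at about 50 µmol per s and m2, so that the regimes differ in intensity as well as in the dark period. A protocol text in the labels writes the LD cycle in the reverse order of light and dark, and the order of the treatment label and of the study's methods is used here. The time of day of sampling is not given in the sources used here.

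The line *rtnlb16-1* is a single T-DNA allele, Salk_122275. Its insertion on chromosome 3 removed the 5′ region that the seventh splice variant of RTNLB16 needs, and the other variants are overexpressed, which the study attributes to CaMV35S elements in the T-DNA. Both regimes carry this allele, but its expression is not the same in them. The mean RTNLB16 value of this line was 9491 under LD and 1886 under CLL. The study also describes small and chlorotic *rtnlb16-1* rosettes under LD, with a partial rescue under CLL. In this comparison the light regime, the level of RTNLB16 and the state of the plants cannot be told apart. A second allele is not part of these libraries.

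In a plant grown in day and night cycles, the circadian clock is set by dawn and dusk and runs through loops of morning and evening genes that repress each other. Light also drives nuclear genes of the photosynthetic apparatus and of photoprotection, through photoreceptors and the factors HY5 and PIF. Leaf immunity against biotrophic pathogens runs largely through salicylic acid, whose main precursor is made in the chloroplast. Salicylic acid acts through the NPR receptors on output genes such as PR1. WRKY factors bind the W-box in the promoters of many of these defense genes.

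The LD libraries carry the numbers 50, 51 and 52 and the CLL libraries the numbers 68, 69 and 70, and values are given in these orders. They hold 25954730 to 33751819 reads assigned to genes. Libraries 68 and 69 differed by little more than sampling noise, with a chi-square per gene of 1.86 and an SD of the log2 ratio of 0.13. The other 11 pairs of libraries within a group had a chi-square per gene of 27.4 to 186 and an SD of 0.38 to 0.78. Libraries 68 and 69 were therefore averaged and counted as 1 sample, which leaves 3 LD samples and 2 CLL samples. Nothing in the labels says that the libraries of a group came from separate sowings, so the p-values measure the spread between these samples. All LD libraries of the series are numbered 47 to 52 and all CLL libraries 65 to 70, and an order of handling that follows the numbers cannot be told apart from the light regime. Each value is a read count divided by a size factor of its library and is called a normalized count. Fold changes are LD against CLL on the log2 scale with a pseudocount of 1, and genes past 1 in either direction with a limma p under 0.01 after Benjamini-Hochberg adjustment over all genes are called DEGs. "Higher" and "lower" always refer to LD relative to CLL. The leave-one-out fits leave out each of the 12 libraries in turn and libraries 68 and 69 together, 13 fits in all.

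The comparison gave 727 DEGs, 2.39% of the genes tested, of which 219 were higher (0.721%) and 508 were lower (1.67%). Over all genes the median was -0.10 on the log2 scale. With libraries 68 and 69 as 2 samples there were 1582 DEGs, and 711 of the 727 were among them. On recovered reads edgeR called 2233 and DESeq2 1687, which included 631 and 619 of the 727. A fit to the *rtnlb16-1* samples alone gave 249 DEGs, of which 94 were among the 727. The count was 320 without library 50, 373 without library 52, 452 without library 70 and 466 without the Col-0 library 66. Of the lower DEGs, 107 had a mean below 10 normalized counts over the 5 samples, and edgeR called 25 of these. Of the 401 lower DEGs with a mean of at least 10, edgeR called 401 and DESeq2 399, and their median log2 fold change was -2.96. Of the 202 higher DEGs with such a mean, edgeR called 200 and DESeq2 199, and their median was 1.66. In 88 of the lower DEGs all LD libraries were at 0, while 11 of the higher DEGs were at 0 in all CLL libraries. Protein-coding genes made up 213 of the higher and 475 of the lower DEGs. Whether reads were counted by strand is not given in the sources used here, and of the 145 genes chosen by rule for naming 24 share positions with another gene, which for 23 lies on the other strand.

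**Figure D1:**
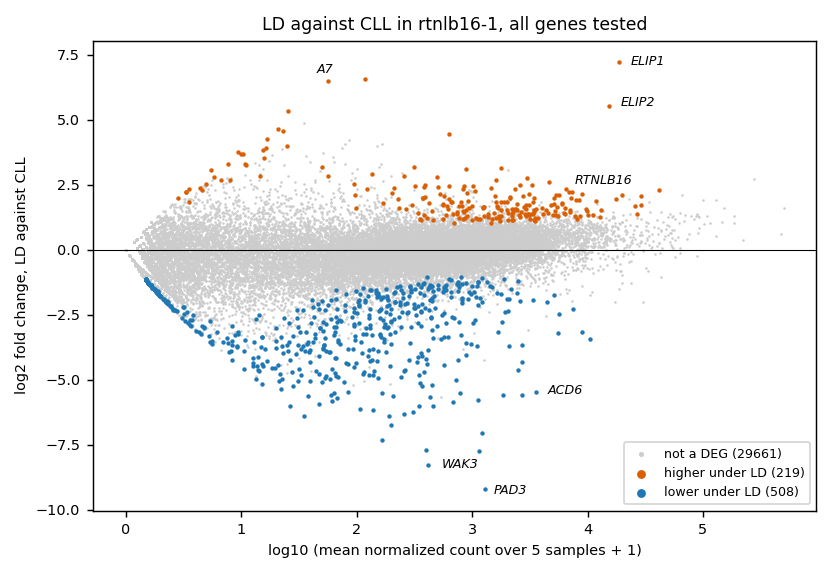
Log10 of the mean normalized count over 5 samples plus 1 (x axis) against the log2 fold change of LD against CLL in *rtnlb16-1* (y axis) for each gene tested, with the 219 higher DEGs, the 508 lower DEGs and the other genes in separate colours. With a mean of at least 10 normalized counts, the lower DEGs extend to -9.21 (PAD3) and the higher DEGs to 7.21 (ELIP1).

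Of the 145 named genes, 125 passed an adjusted p under 0.01. Over all genes 2.42% did, but most of the named genes were named because they passed. The count of 125 therefore follows from the naming rule and is not a result about these genes. With edgeR and with DESeq2, run on the same libraries, all 125 also passed it. In the leave-one-out fits 42 of them passed every time and 83 were lost at least in 1 fit, with an adjusted p of at most 0.152. Leaving out libraries 68 and 69 together lost 76 of the 125, library 70 lost 65, library 50 lost 60, library 52 lost 54 and library 51 lost 32. The genes that passed in all 13 fits are marked as such below. The counts for gene lists are limma calls where no other tool is named. In each list edgeR and DESeq2 called at least as many genes in the same direction, but they also called more of all genes. The shares of all genes called were 0.744% higher and 1.67% lower with limma, 2.74% and 4.69% with edgeR, and 2.88% and 3.47% with DESeq2.

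The promoters of 5 DEGs show the motifs that recur in the results below. The 250 bases before the annotated gene start are printed 5′ to 3′ on the strand of the gene, from the RefSeq annotation of TAIR10.1, with the motif in capitals. ELIP1 (AT3G22840, chr3:8085670-8085919, minus strand) and PRR9 (AT2G46790, chr2:19232357-19232606, plus strand) are among the higher DEGs and hold the G-box CACGTG, a site of HY5 and PIF factors, once and in a pair of copies.
ELIP1: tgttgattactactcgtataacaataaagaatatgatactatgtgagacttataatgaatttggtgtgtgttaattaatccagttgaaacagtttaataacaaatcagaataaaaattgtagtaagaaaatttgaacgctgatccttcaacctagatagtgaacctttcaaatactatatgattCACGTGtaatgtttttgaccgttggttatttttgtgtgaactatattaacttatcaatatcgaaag
PRR9: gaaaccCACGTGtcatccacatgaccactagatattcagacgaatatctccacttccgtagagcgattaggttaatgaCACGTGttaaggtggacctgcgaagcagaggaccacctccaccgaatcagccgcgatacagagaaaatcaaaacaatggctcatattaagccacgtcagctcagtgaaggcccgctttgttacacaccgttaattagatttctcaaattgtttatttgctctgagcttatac
GSTF7 (AT1G02920, chr1:659981-660230, minus strand) and WRKY30 (AT5G24110, chr5:8154711-8154960, minus strand) are among the lower DEGs and hold 3 W-boxes each, TTGACC or TTGACT on either strand. The ELIP1 sequence above also holds TTGACC, in small letters because only the G-box is marked there.
GSTF7: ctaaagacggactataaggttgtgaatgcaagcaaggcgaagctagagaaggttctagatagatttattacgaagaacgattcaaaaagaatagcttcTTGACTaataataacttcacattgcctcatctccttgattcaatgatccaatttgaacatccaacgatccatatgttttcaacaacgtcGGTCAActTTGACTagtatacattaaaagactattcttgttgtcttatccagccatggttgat
WRKY30: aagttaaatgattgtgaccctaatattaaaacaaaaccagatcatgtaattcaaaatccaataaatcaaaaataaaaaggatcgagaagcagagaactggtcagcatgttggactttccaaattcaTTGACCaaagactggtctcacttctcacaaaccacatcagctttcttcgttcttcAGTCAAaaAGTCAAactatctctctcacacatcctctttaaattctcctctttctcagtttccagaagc
GRP7 (AT2G21660, chr2:9266558-9266807, minus strand), a clock-controlled gene among the lower DEGs, holds 3 copies of the evening element AAAATATCT on either strand.
GRP7: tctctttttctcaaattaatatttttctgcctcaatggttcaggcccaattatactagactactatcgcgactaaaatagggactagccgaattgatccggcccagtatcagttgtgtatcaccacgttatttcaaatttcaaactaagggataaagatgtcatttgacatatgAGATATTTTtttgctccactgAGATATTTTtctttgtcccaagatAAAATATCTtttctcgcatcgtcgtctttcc

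Over the 300 bases from 250 before to 50 after the gene start, the W-box occurred in 50.1% of the 507 promoters of lower DEGs and in 30.6% of the 219 promoters of higher DEGs, against 32.5% of the promoters of 25072 protein-coding genes tested. The G-box occurred in 14.2% of the higher, 5.33% of the lower and 8.07% of the protein-coding promoters. The evening element occurred in 6.39%, 3.75% and 2.90% and the CCA1 site AAAAATCT in 11.9%, 6.51% and 7.94%, in the same order. The as-1 element TGACG, known as a site of TGA factors, occurred in 32.9%, 25.2% and 23.2%, the ABRE core ACGTG in 42.0%, 28.6% and 27.2%, the DRE core CCGAC in 14.2%, 9.27% and 15.2%, and the I-box GATAAG in 10.5%, 17.0% and 14.6%. Both strands were searched, every G-box also holds the ABRE core, and a match is a stretch of letters and not a site shown to be bound. Among the 30198 promoters of all genes tested, the shares were 7.27% for the G-box, 31.6% for the W-box, 2.69% for the evening element, 7.43% for the CCA1 site, 14.7% for the I-box, 15.3% for the DRE core, 22.9% for the as-1 element and 25.8% for the ABRE core.

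**Figure D2:**
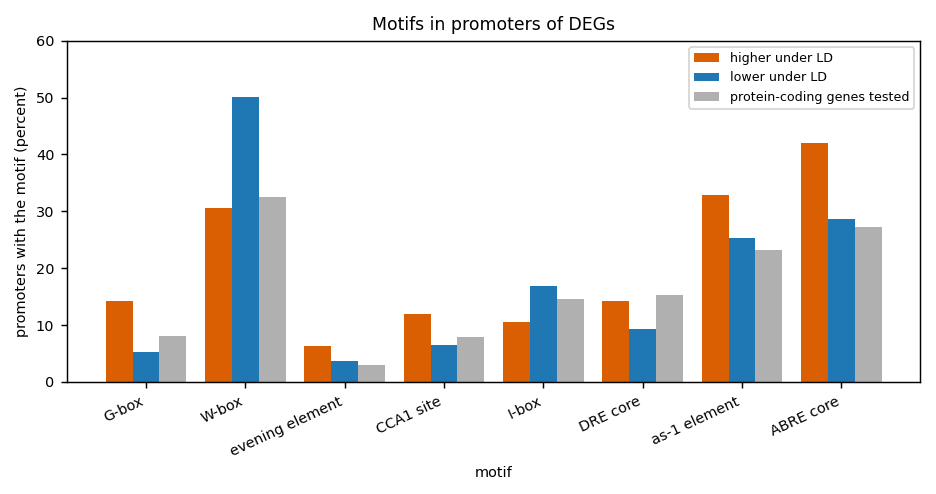
Share of promoters (percent, y axis) that hold each of 8 motifs (x axis) among the 219 higher DEGs, the 507 lower DEGs with a promoter and the 25072 protein-coding genes tested in the *rtnlb16-1* comparison. The W-box stands at 50.1% in the lower DEGs and the G-box at 14.2% in the higher DEGs.

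RTNLB16 (AT3G10915, chromosome 3, 3415933 to 3417809, minus strand in TAIR10.1), the overexpressed gene of the line and a member of the reticulon family that shapes tubules of the endoplasmic reticulum (ER), was higher under LD. Its normalized counts were 12665, 7577 and 8231 under LD and 2207, 2252 and 1543 under CLL. All LD libraries lay above all CLL libraries (log2 fold change 2.32, standard error 0.27, limma adjusted p = 0.000668), with means of 9491 ± 2768 (SD, n = 3) under LD and 1886 ± 486 (SD, n = 2) under CLL. The exact two-sided permutation test over the 3 and 2 samples gave p = 0.2, the smallest it allows. The call was lost without library 70 (log2 fold change 2.05, adjusted p = 0.0115) and in the fit to the *rtnlb16-1* samples alone (adjusted p = 0.0496). In Col-0 the change was 0.22, and the interaction was 2.096 (limma adjusted p = 0.0234), short of the threshold. The counts per gene do not separate the splice variants. Of the 21 reticulon-like genes RTNLB16 was the 1 that passed limma, and the median of the family was -0.13. With edgeR, with DESeq2 and in limma with libraries 68 and 69 as 2 samples, 3 of the family were higher. No member was lower in limma, but 1 was without library 68, 1 without library 70 and 2 without libraries 68 and 69 together.

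MSD1, the manganese superoxide dismutase gene that lies next to RTNLB16, had normalized counts of 9423, 6609 and 7463 under LD and 5491, 5664 and 5157 under CLL. Its log2 fold change was 0.53 (standard error 0.24), which did not pass limma (adjusted p = 0.214). The exact two-sided permutation test gave p = 0.2, the smallest it allows for any gene here, so it could not pass. ACT2, an actin gene often used as a reference, had 24999, 17944 and 20785 under LD and 16434, 16428 and 14930.0 under CLL. Its log2 fold change was 0.43 (exact two-sided permutation p = 0.2, again the smallest possible). It did not pass limma either (adjusted p = 0.352). The LD libraries of both genes nevertheless lay above the CLL libraries, as they did or the reverse for 10233 genes (33.7%).

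Transcripts of early light-induced proteins rose. These proteins are relatives of the light-harvesting proteins and are known to bind pigments under excess light. ELIP1, with the largest log2 fold change among the 202 higher DEGs with a mean of at least 10, had normalized counts of 42938, 19507 and 30172 under LD and 189, 209 and 195 under CLL, a 157-fold difference of the means (log2 fold change 7.21, standard error 0.54, limma adjusted p = 4.36e-05). ELIP2 had 32741, 21665 and 21057 under LD and 400.1, 444 and 693 under CLL, a 45.1-fold difference (log2 fold change 5.51, standard error 0.46, limma adjusted p = 9.29e-05). For both genes the lowest LD library lay far above the highest CLL library and the call passed in all 13 leave-one-out fits. ELIP1 also rose in Col-0, by 3.27, and its interaction of 3.94 did not pass (limma adjusted p = 0.031). Of the 17 genes in the list of early light-induced and photoprotective genes, these 2 passed limma and none was lower, against 0.744% and 1.67% of all genes at this threshold. Calls of 4 higher and 1 lower came from edgeR, from DESeq2 and from limma with libraries 68 and 69 as 2 samples. The median of the list was 0.75. NPQ4, the PsbS protein of energy dissipation, was at 0.75 and the carotene hydroxylase BCH1 at 1.49, neither past the threshold.

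The light-harvesting antenna genes stood at a higher level under LD as a list, although few passed singly. Their summed normalized counts took 9.996%, 7.25% and 9.12% of the library under LD and 3.43%, 3.55% and 3.72% under CLL. Of 20 members 19 had a positive log2 fold change and the median was 1.32, but 2 passed limma, LHCB2.2 and LHCB7 (0 to 3 in the leave-one-out fits, over 1.5 times from the main count without 50, 52, 70, 68 with 69, 65, 66 and 67). With libraries 68 and 69 as 2 samples 7 passed, where 2.37% of all genes were higher and 3.48% lower. edgeR called 16 higher, against 2.74% of all genes higher and 4.69% lower, and DESeq2 17, against 2.88% higher and 3.47% lower. LHCB2.2, a trimeric antenna protein of photosystem II, had 78609, 43608 and 61322 under LD and 10080.4, 10962 and 13707 under CLL (log2 fold change 2.31, standard error 0.39, limma adjusted p = 0.00506). LHCB7 had 2137, 1463 and 1475 under LD and 590.1, 583 and 516 under CLL (log2 fold change 1.60, standard error 0.24, limma adjusted p = 0.00271). The call of LHCB2.2 was lost without 50, 52, 70, 68 with 69, 65, 66 and 67 (adjusted p up to 0.0464) and that of LHCB7 without 50, 52, 70, 68 with 69 and 66 (adjusted p up to 0.0332). LHCB1.1 had the largest value of the list with 2.73 and did not pass (limma adjusted p = 0.0194). Members of the LHCB1 and LHCB2 subfamilies are near-identical in sequence, so the division of reads between them is uncertain.

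The other photosynthetic lists moved less. Of 25 nuclear photosystem and electron transport subunits none passed limma, edgeR called 6 higher and DESeq2 6 higher, and 10 had an unadjusted p under 0.05, all of them higher, against 9.21% of all genes higher and 13.7% lower. Their median was 0.76, and PSBR, the most abundant member, had 315059, 133990.0 and 297062 under LD and 101483, 106414 and 85210.5 under CLL, with overlapping reads of a second gene possible. Of 18 Calvin cycle genes none passed limma, with 2 lower and none higher at an unadjusted p under 0.05, 2 lower in edgeR, and 1 higher and 2 lower in DESeq2. Their median was 0.14, and RBCS1A, the main Rubisco small subunit gene, had 629325, 407889 and 599949 under LD and 386108, 392747 and 316964 under CLL. Photorespiration had a median of -0.01 over 12 genes and no call by limma or edgeR, 1 higher in DESeq2 and 1 higher at an unadjusted p under 0.05. In chlorophyll synthesis 1 of 15 genes was higher, GUN4, an activator of magnesium chelatase, with 275, 187 and 248 under LD and 78.2, 65.6 and 60.7 under CLL (log2 fold change 1.81, standard error 0.27, limma adjusted p = 0.00271). Its call was lost without 50, 52 and 70 (adjusted p up to 0.0151). Chloroplast-encoded genes were not analysed here.

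Among 30 photoreceptor and light-signalling genes 6 were higher and none lower, 1 to 5 in the leave-one-out fits, over 1.5 times from the main count without 50, 51, 52, 70, 68 with 69, 47, 49, 65, 66 and 67. BBX22, a B-box factor that works with HY5, had 2052, 2729.8 and 1706 under LD and 327, 355 and 494 under CLL (log2 fold change 2.37, standard error 0.25, limma adjusted p = 0.000321) and passed in all 13 fits. RUP1 and RUP2, repressors of the UV-B receptor UVR8, rose by 2.45 and 1.84, with RUP1 at 675, 286 and 474 under LD and 58.8, 72.3 and 101.2 under CLL. PIF4, a bHLH factor of warmth and shade growth, had 1215, 918 and 1191 under LD and 279.6, 289 and 549 under CLL (log2 fold change 1.47, standard error 0.28, limma adjusted p = 0.00915). CRY3, a cryptochrome of organelles, rose by 1.36 and BBX24 by 1.32. The calls of RUP1, RUP2, PIF4 and CRY3 were lost in 8 (adjusted p up to 0.0696), 11 (adjusted p up to 0.128), 12 (adjusted p up to 0.0883) and 7 (adjusted p up to 0.038) of the 13 fits, and that of BBX24 without 50, 51, 52, 70, 68 with 69 and 66 (adjusted p up to 0.0262). The phytochromes PHYA to PHYE lay between -0.39 and 0.53 and HY5 at 0.38, none past the threshold. BBX28, from the shade list of 9 genes, rose from 523, 618 and 770.4 under CLL to 5179, 3228 and 5323 under LD (log2 fold change 2.75, standard error 0.28, limma adjusted p = 0.00029) and passed in all 13 fits, as the 1 member of that list to pass.

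Flavonoid synthesis followed the same direction. Of 22 phenylpropanoid and flavonoid genes 4 were higher and none lower, 20 had a positive log2 fold change and the median was 1.18. edgeR called 13 higher and DESeq2 9, against 2.74% and 2.88% of all genes, and the limma share of all genes was 0.744%. TT4, chalcone synthase, the entry enzyme of the flavonoid branch, had 52207, 29312 and 44122 under LD and 10664, 11216 and 8623 under CLL (log2 fold change 2.07, standard error 0.30, limma adjusted p = 0.00211), and its call was lost without 50, 52 and 70 (adjusted p up to 0.0177). TT5, chalcone isomerase, rose by 1.84, the flavonol synthase FLS1 by 1.41 and the coumarate ligase 4CL3 by 1.32. These calls were lost in 11 (adjusted p up to 0.0846), 12 (adjusted p up to 0.0996) and 8 (adjusted p up to 0.0507) of the 13 fits, and the list kept 0 to 3 in the leave-one-out fits, over 1.5 times from the main count without 50, 52, 68, 69, 70, 68 with 69, 49, 65, 66 and 67. F3H, flavanone hydroxylase, stood at 3.02 without passing (limma adjusted p = 0.0221), from 92.9, 44.8 and 82.2 under LD and 7.89, 5.89 and 8.77 under CLL.

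**Figure D3:**
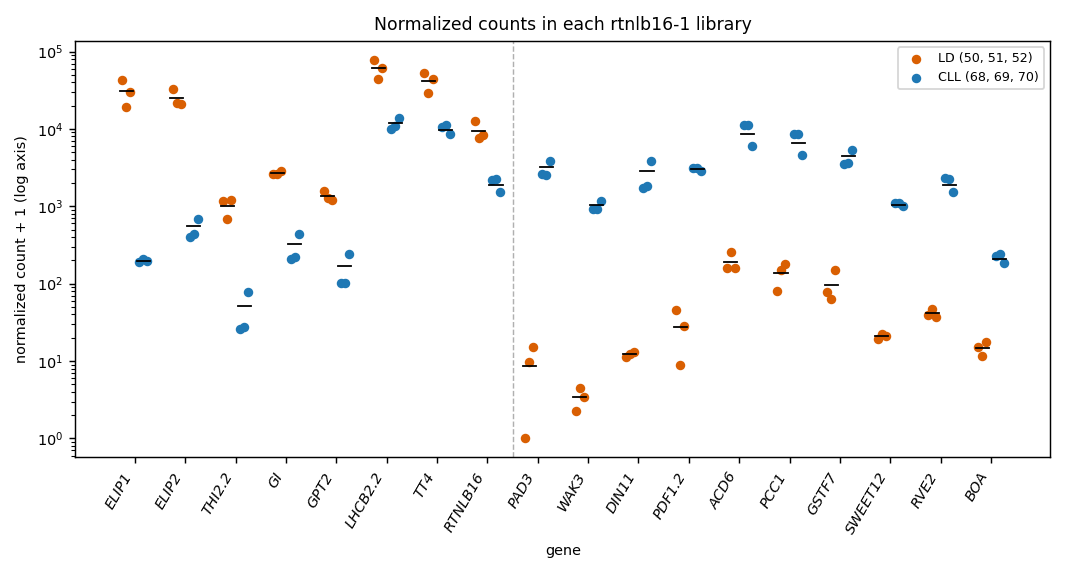
Normalized counts plus 1 (y axis, log axis) of 18 genes (x axis) in each of the 6 *rtnlb16-1* libraries, with orange points for LD, blue points for CLL and black bars for the means, in which libraries 68 and 69 count as 1 sample. The ELIP1 libraries lie between 19507 and 42938 under LD and at 189, 209 and 195 under CLL, and the genes right of the dashed line show the reverse order.

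Carbon-related genes changed in both directions. GPT2, a glucose-6-phosphate transporter of plastids, had 1588, 1289.7 and 1201 under LD and 100.4, 100.1 and 239 under CLL (log2 fold change 3.11, standard error 0.51, limma adjusted p = 0.00435), with the call lost in 10 (adjusted p up to 0.0875) of the 13 fits. In Col-0 it changed by -2.44, the opposite direction (interaction 5.56 on the log2 scale, limma adjusted p = 0.00435). BAM9, a catalytically inactive beta-amylase, fell, with 1373, 1255 and 1143 under LD and 3999, 3895 and 3172 under CLL (log2 fold change -1.50, standard error 0.19, limma adjusted p = 0.001), and passed in all 13 fits. These were the 2 of 18 starch genes that passed. SWEET12, a sucrose exporter that loads the phloem, had 18.1, 21.1 and 20.2 under LD and 1089.8, 1094 and 995 under CLL (log2 fold change -5.65, standard error 0.25, limma adjusted p = 1.12e-06). This is a 52.7-fold lower mean under LD, it passed in all 13 fits, and it was the 1 of 9 phloem genes past the threshold.

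Of 21 dark- and starvation-induced genes 3 were lower and none higher, 1 to 4 in the leave-one-out fits, over 1.5 times from the main count without 70 and 68 with 69. DIN11, an oxygenase induced in darkened leaves, had 10.3, 11.4 and 11.9 under LD and 1722, 1841 and 3899.8 under CLL (log2 fold change -7.76, standard error 0.56, limma adjusted p = 3.75e-05) and passed in all 13 fits. BGAL4, a beta-galactosidase, had 86.4, 137 and 113 under LD and 402, 399 and 559.9 under CLL and fell by 2.09 on the log2 scale, with the call lost without 50, 52, 70, 68 with 69, 65, 66 and 67 (adjusted p up to 0.0489). GDH1, a glutamate dehydrogenase, had 297, 396 and 407 under LD and 940.0, 879 and 949 under CLL and fell by 1.35 on the log2 scale, with the call lost without 70 and 68 with 69 (adjusted p up to 0.0134). The median of the list was -0.27. Nitrate reductase NIA1, the 1 of 11 nitrate assimilation genes to pass, had 12664, 17362 and 13870.4 under LD and 4953, 4984 and 6831 under CLL (log2 fold change 1.32, standard error 0.23, limma adjusted p = 0.00654), lost in 9 (adjusted p up to 0.0512) of the 13 fits.

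Clock genes changed in both directions within each phase. Of 14 morning genes 1 was higher and 4 were lower, and of 14 evening genes 2 were higher and 5 lower. Of all genes 0.744% were higher and 1.67% lower. PRR9, a repressor of the morning loop, had 439, 1350.4 and 507 under LD and 87.5, 84.1 and 109 under CLL (log2 fold change 2.78, standard error 0.51, limma adjusted p = 0.00774), with the call lost in each of the 13 fits and library 51 the highest. LHY, a morning MYB factor, had 994, 2675 and 1336 under LD and 6951, 7008 and 4843 under CLL (log2 fold change -1.93, standard error 0.35, limma adjusted p = 0.00763), with the call lost in 12 (adjusted p up to 0.138) of the fits, and CCA1, its partner, did not pass (-0.62). The MYB-like factor RVE2 had 38.7, 46.6 and 35.7 under LD and 2314, 2244 and 1530.0 under CLL (log2 fold change -5.51, standard error 0.48, limma adjusted p = 0.000106) and passed in all 13 fits. RVE1 fell by 2.83 on the log2 scale and RVE8, an activator of evening genes, fell by 1.39, both lost only without libraries 68 and 69 together (adjusted p up to 0.0177).

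GI, an evening protein of photoperiodic flowering, had 2648, 2645 and 2888 under LD and 207, 219.6 and 442 under CLL (log2 fold change 3.15, standard error 0.31, limma adjusted p = 0.000225) and passed in all 13 fits. ZTL, an F-box photoreceptor of the clock, rose by 1.38, lost in 11 (adjusted p up to 0.0925) of the 13 fits. BOA, a relative of LUX in the evening complex, had 14.2, 10.5 and 16.7 under LD and 226, 238 and 183 under CLL (log2 fold change -3.83, standard error 0.42, limma adjusted p = 0.000464) and passed in all 13 fits. ELF4, of the same complex, had 58.1, 65.1 and 71.4 under LD and 437, 479 and 565 under CLL (log2 fold change -2.96, standard error 0.38, limma adjusted p = 0.00114), with the call lost without 70 and 68 with 69 (adjusted p up to 0.0153). PRR3 fell by 4.35 on the log2 scale from 201, 215 and 165 to 5.16, 20.2 and 4.76, lost without 50, 52, 70, 68 with 69, 65, 66 and 67 (adjusted p up to 0.0611). TOC1, which represses the morning genes, fell by 1.33 on the log2 scale, lost without 50, 52, 70 and 68 with 69 (adjusted p up to 0.0207). GRP7, the RNA-binding protein whose promoter is printed above, had 2419, 1261 and 2429 under LD and 8302, 8803 and 13604 under CLL (log2 fold change -2.47, standard error 0.35, limma adjusted p = 0.00183), lost without 50, 70 and 68 with 69 (adjusted p up to 0.043). Morning genes that were lower numbered 1 to 4 in the leave-one-out fits, over 1.5 times from the main count without 68 with 69, and lower evening genes 1 to 5 in the leave-one-out fits, over 1.5 times from the main count without 50, 52, 70 and 68 with 69. Higher evening genes numbered 1 to 2 in the leave-one-out fits, over 1.5 times from the main count without 50, 52, 68, 69, 70, 68 with 69, 47, 49, 65, 66 and 67. Of the morning genes, edgeR and DESeq2 each called 6 higher and 4 lower. The shares of all genes were 2.74% and 4.69% with edgeR and 2.88% and 3.47% with DESeq2. The evening element occurred in 7 of the 14 evening promoters and the G-box in 10 of the 14 morning promoters, whichever way the gene had changed. Whether all libraries were harvested at the same time of day is not given in the sources used here. Each library gives 1 point of a daily rhythm and no phase.

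Of 16 genes of photoperiod and flowering time 1 was higher, SPL9, a factor of the juvenile to adult transition, with 574, 922 and 844 under LD and 272, 273 and 191 under CLL (log2 fold change 1.74, standard error 0.28, limma adjusted p = 0.00394), and its call was lost without 51, 52, 70, 68 with 69, 65 and 66 (adjusted p up to 0.0399). FT, the mobile flowering signal, was at -2.01 and did not pass (limma adjusted p = 0.0899), with 36.1, 37.8 and 31 under LD and 185, 215 and 103 under CLL. edgeR called 2 higher and 4 lower and DESeq2 2 higher and 2 lower in this list.

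Immune genes made up the lists with the largest fall. Over all genes 0.744% were higher and 1.67% lower by limma. Of 8 salicylic acid output genes 7 were lower and none higher, with a median of -5.53. Their summed counts took 0.00155%, 0.00263% and 0.00234% of the library under LD and 0.115%, 0.114% and 0.065% under CLL. PR1, the classic secreted marker of the response, had 1.29, 14.1 and 2.38 under LD and 713, 682 and 239 under CLL (log2 fold change -6.39, standard error 0.97, limma adjusted p = 0.00279), with the call lost in 8 (adjusted p up to 0.0977) of the 13 fits and library 70 the lowest under CLL. PCR1 had 9.03, 1.76 and 2.38 under LD and 1255, 1265 and 727 under CLL (log2 fold change -7.72, standard error 0.73, limma adjusted p = 0.000156), lost without 68 with 69 (adjusted p up to 0.0101). ACD6, an ankyrin membrane protein that promotes salicylic acid signalling, had 160.0, 252 and 161 under LD and 11397, 11317 and 6032 under CLL (log2 fold change -5.46, standard error 0.33, limma adjusted p = 1.2e-05). PCC1 had 80, 150.3 and 179 under LD and 8611, 8521 and 4559.5 under CLL (log2 fold change -5.59, standard error 0.47, limma adjusted p = 9.55e-05) and LURP1 had 34.8, 44.8 and 67.9 under LD and 3377, 3489.5 and 2046 under CLL (log2 fold change -5.78, standard error 0.48, limma adjusted p = 9.29e-05). ACD6, PCC1 and LURP1 passed in all 13 fits. PR2 and PR5, further pathogenesis-related genes, fell, with log2 fold changes of -4.68 and -1.86, and GRX480 was at -2.20 without passing. PR2 passed in all 13 fits and PR5 was lost in 11 (adjusted p up to 0.104) of them. The list had 4 to 7 in the leave-one-out fits, over 1.5 times from the main count without 68 with 69. In Col-0 3 of the 8 were lower (1.56% of all genes were higher there and 2.8% lower) and the median was -2.38, and the interaction passed for PCC1 (interaction -4.98 on the log2 scale, limma adjusted p = 0.00506) and ACD6 (interaction -4.13 on the log2 scale, limma adjusted p = 0.00143).

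Of 13 genes of salicylic acid synthesis and turnover 6 were lower, with a median of -1.78 (1 to 6 in the leave-one-out fits, over 1.5 times from the main count without 50, 70 and 68 with 69). ICS1, the isochorismate synthase that starts the main route, did not pass (-0.44, limma adjusted p = 0.248). It had 427, 426 and 386 under LD and 536, 553 and 578 under CLL. Beside the lower count of this list, 1.67% of all genes were lower by limma. PBS3, which conjugates isochorismate, had 16.8, 44 and 58.3 under LD and 305, 308 and 372 under CLL (log2 fold change -3.23, standard error 0.43, limma adjusted p = 0.0013), lost without 70 and 68 with 69 (adjusted p up to 0.028), and EDS5, the exporter of the precursor from the chloroplast, fell by 1.78 on the log2 scale, lost without 50, 70 and 68 with 69 (adjusted p up to 0.0216). The salicylic acid hydroxylases DMR6 and DLO1 fell too, DMR6 with 60.6, 119 and 111 under LD and 1158, 1156 and 850.0 under CLL (log2 fold change -3.40, standard error 0.29, limma adjusted p = 9.29e-05) and in all 13 fits, DLO1 with a log2 fold change of -4.43 and lost in 10 (adjusted p up to 0.102) of them. ALD1 and FMO1 make the pipecolic acid signal of systemic resistance. ALD1 had 0, 0 and 0 under LD and 56.6, 62.3 and 68.1 under CLL, at least 19-fold lower under LD against a floor of 3 reads per library, and passed limma (adjusted p = 0.00114) except without 70 and 68 with 69 (adjusted p up to 0.0202). FMO1 had 1.29, 0 and 1.19 under LD and 39.4, 57.2 and 57.3 under CLL (log2 fold change -4.97, standard error 0.92, limma adjusted p = 0.00833), lost in 11 (adjusted p up to 0.0998) of the fits.

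Of 14 salicylic acid regulators 4 were lower and none higher, with a median of -2.19 (2 to 6 in the leave-one-out fits, over 1.5 times from the main count without 68 with 69). SARD1 and CBP60G, the pair of factors that activate ICS1, had 28.4, 31.6 and 32.1 under LD and 509.8, 450.1 and 293 under CLL and 102, 121 and 150.0 under LD and 522, 528 and 662 under CLL. They fell, with log2 fold changes of -3.57 and -2.25 (limma adjusted p = 3.38e-05 and 0.000395), and passed in all 13 fits. WRKY70 had 28.4, 75.6 and 42.9 under LD and 1263, 1289 and 579 under CLL (log2 fold change -4.22, standard error 0.51, limma adjusted p = 0.000791), lost without 68 with 69 (adjusted p up to 0.0285), and WRKY54 fell by 4.25 on the log2 scale, lost without 50, 52 and 68 with 69 (adjusted p up to 0.0484). EDS1, a hub of receptor-triggered immunity, was at -2.24 without passing and PAD4, its partner, at 0.91, the 1 positive value of the list. The receptors NPR1, NPR3 and NPR4 were at -0.20, -0.62 and -0.23, none past the threshold. Beside the counts of this list, 0.744% of all genes were higher and 1.67% lower by limma.

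Of 22 WRKY factors 7 were lower and none higher by limma, with a median of -1.75, against 1.67% of all genes lower. Lower calls numbered 12 each with edgeR and DESeq2, against 4.69% and 3.47% of all genes. The limma count was at most 6 in the leave-one-out fits, over 1.5 times from the main count without 50, 52, 70, 68 with 69, 65 and 66. WRKY75 had 1.29, 0.879 and 2.38 under LD and 88.2, 105 and 198 under CLL (log2 fold change -5.84, standard error 0.60, limma adjusted p = 0.000285) and passed in all 13 fits. WRKY40 had 3.87, 21.1 and 7.14 under LD and 228, 219.6 and 308 under CLL (log2 fold change -4.78, standard error 0.70, limma adjusted p = 0.00231) and WRKY30 had 0, 0.879 and 1.19 under LD and 18.6, 21 and 14.8 under CLL (log2 fold change -3.50, standard error 0.56, limma adjusted p = 0.00372), lost without 50, 52, 70, 68 with 69 and 66 (adjusted p up to 0.041) and without 50, 70 and 68 with 69 (adjusted p up to 0.0239). WRKY46 and WRKY51 fell, with log2 fold changes of -3.83 and -3.54, lost in 10 (adjusted p up to 0.0668) and 11 (adjusted p up to 0.11) of the fits. The W-box occurred in 13 of the 22 WRKY promoters, against 32.5% of the protein-coding promoters. Among salicylic acid genes it occurred in 2 of 8 output, 3 of 13 synthesis and turnover and 4 of 14 regulator promoters. Pattern-triggered immunity had it in 10 of 15 promoters, camalexin and tryptophan synthesis in 8 of 19 and the defensin list in 6 of 14.

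Receptor kinases at the cell surface shared the direction, in which limma called 1.67% of all genes. Of 17 cysteine-rich receptor-like kinases 13 were lower, all 17 had a negative log2 fold change and the median was -3.19 (7 to 10 in the leave-one-out fits, over 1.5 times from the main count without 70 and 68 with 69). CRK7 had 2.58, 2.64 and 1.19 under LD and 76.7, 74 and 70.8 under CLL (log2 fold change -4.60, standard error 0.40, limma adjusted p = 0.000106) and CRK4 had 21.9, 22.9 and 13.1 under LD and 590.1, 588 and 325 under CLL (log2 fold change -4.47, standard error 0.35, limma adjusted p = 6.45e-05), and both passed in all 13 fits, as did CRK39, which was at 0 in all LD libraries and at 10, 5.05 and 26.3 under CLL. CRK37 and CRK36 fell, with log2 fold changes of -4.54 and -3.85, lost without 50, 51, 70, 68 with 69 and 66 (adjusted p up to 0.0417) and without 70 (adjusted p up to 0.0125). The W-box occurred in 11 of the 17 promoters, against 32.5% of the protein-coding promoters.

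WAK3, a wall-associated kinase, fell. Its normalized counts were 1.29, 3.52 and 2.38 under LD and 919.9, 914 and 1156 under CLL, a 432-fold difference of the means (log2 fold change -8.30, standard error 0.39, limma adjusted p = 1.15e-06), and it passed in all 13 fits. WAK1, a kinase that binds pectin, had 215, 593 and 423 under LD and 4466, 4354 and 2659.9 under CLL (log2 fold change -3.18, standard error 0.41, limma adjusted p = 0.00115) and WAKL10 fell by 4.104 on the log2 scale, lost without 70 and 68 with 69 (adjusted p up to 0.0399) and without 50, 51, 52, 70, 68 with 69, 65 and 66 (adjusted p up to 0.044). These are 3 of the 6 wall-associated kinases tested (1 to 3 in the leave-one-out fits, over 1.5 times from the main count without 68 with 69). Of 15 genes of pattern-triggered immunity 3 were lower. RLP23, the receptor of a microbial necrosis peptide, had 55.5, 58 and 64.3 under LD and 424, 427 and 379.8 under CLL (log2 fold change -2.74, standard error 0.26, limma adjusted p = 0.000156) and passed in all 13 fits. The kinase MPK11 fell by 3.67 on the log2 scale, and RBOHD, the NADPH oxidase of the oxidative burst, had 739, 857 and 893 under LD and 1929, 1926 and 1653 under CLL (log2 fold change -1.11, standard error 0.20, limma adjusted p = 0.00748). They were lost without 50, 51, 70, 68 with 69, 65, 66 and 67 (adjusted p up to 0.0437) and in 9 (adjusted p up to 0.0513) of the fits.

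PAD3, the last enzyme of camalexin synthesis, was 416-fold lower under LD by the ratio of the means. It had 0, 8.79 and 14.3 under LD and 2648, 2541 and 3809 under CLL (log2 fold change -9.21, standard error 1.02, limma adjusted p = 0.000464), lost without 70 and 68 with 69 (adjusted p up to 0.0173). CYP71A13, an earlier step of the same route, had 1.29, 4.4 and 5.95 under LD and 422, 374 and 573 under CLL (log2 fold change -6.76, standard error 0.82, limma adjusted p = 0.00087), lost without 70 and 68 with 69 (adjusted p up to 0.021). GSTF6, a glutathione transferase of camalexin synthesis, fell by 3.72 on the log2 scale, lost without 50, 70 and 68 with 69 (adjusted p up to 0.0308). MYB51, a regulator of indole glucosinolates, had 19.4, 44 and 42.9 under LD and 339.9, 297 and 384 under CLL and CYP79B3, which makes indole-acetaldoxime, had 361, 409 and 308 under LD and 1063, 1096 and 1149 under CLL. They fell, with log2 fold changes of -3.36 and -1.64, and passed in all 13 fits. In the list of 19 genes 8 were lower and none higher, with a median of -1.25 (2 to 9 in the leave-one-out fits, over 1.5 times from the main count without 50, 52, 70 and 68 with 69). Of 28 glucosinolate genes 2 were lower, CYP81F2, which modifies indole glucosinolates, with 12.9, 11.4 and 21.4 under LD and 230.2, 180.0 and 302 under CLL (log2 fold change -3.99, standard error 0.49, limma adjusted p = 0.00087), and the transporter NPF2.11 at -1.26, lost without 70 (adjusted p up to 0.0129) and without 50, 52, 70, 68 with 69 and 66 (adjusted p up to 0.0207). The median of these 28 was -0.39. Beside the counts of both lists, 1.67% of all genes were lower by limma.

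The plant defensins fell and a thionin rose. PDF1.2, a defensin induced by jasmonate with ethylene, had 45.2, 7.91 and 27.4 under LD and 3168, 3082 and 2875 under CLL (log2 fold change -7.05, standard error 0.59, limma adjusted p = 9.29e-05) and passed in all 13 fits, as did PDF1.3 with 55.5, 14.9 and 25 under LD and 868, 912 and 751 under CLL (log2 fold change -4.84, standard error 0.47, limma adjusted p = 0.000179). PDF1.1, PDF1.2b and PDF1.2c fell, with log2 fold changes of -7.31, -4.84 and -6.03, with PDF1.1 lost without 70 (adjusted p up to 0.0175), PDF1.2c without 51, 52, 70, 68 with 69, 65, 66 and 67 (adjusted p up to 0.0509) and PDF1.2b in 10 (adjusted p up to 0.0795) of the fits. These defensin genes are close paralogs, and the division of reads among them is uncertain. THI2.2, a thionin, had 1168, 693 and 1208 under LD and 25.1, 26.9 and 76.2 under CLL (log2 fold change 4.44, standard error 0.49, limma adjusted p = 0.000428) and passed in all 13 fits. The list of 14 defensins, thionins and basic PR genes thus had 1 higher and 6 lower, with a median of -1.88. Of all genes 0.744% were higher and 1.67% lower. The lower count was 2 to 6 in the leave-one-out fits, over 1.5 times from the main count without 70, 68 with 69 and 66. Of 20 jasmonate genes 2 were lower, the lipoxygenase LOX2 with 1769, 1664 and 2559.8 under LD and 9563, 9358 and 6605 under CLL (log2 fold change -2.01, standard error 0.33, limma adjusted p = 0.00476) and the cyclase AOC3 at -1.94, lost in 11 (adjusted p up to 0.0876) of the fits and without 50, 51, 52, 68 with 69 and 66 (adjusted p up to 0.0189).

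Of 23 glutathione transferases, which conjugate toxins and metabolites, 8 were lower and none higher, with a median of -2.15 (4 to 9 in the leave-one-out fits, over 1.5 times from the main count without 50, 51, 70, 68 with 69 and 65). GSTF7 had 77.4, 63.3 and 148 under LD and 3538, 3681 and 5359.6 under CLL (log2 fold change -5.60, standard error 0.52, limma adjusted p = 0.000146) and GSTF2 had 99.4, 65.1 and 117 under LD and 1649.8, 1665 and 1798 under CLL (log2 fold change -4.23, standard error 0.38, limma adjusted p = 0.000133). GSTU11 fell by 5.07 on the log2 scale, and GSTF7, GSTF2 and GSTU11 passed in all 13 fits. GSTU3 and GSTU9 fell, with log2 fold changes of -5.93 and -5.59, lost without 50, 51, 70 and 68 with 69 (adjusted p up to 0.0304) and in 11 (adjusted p up to 0.0904) of the fits. GSTF6 and GSTF7 are near-identical neighbours, which makes the split of their reads uncertain. The W-box occurred in 15 of the 23 promoters, against 32.5% of the protein-coding promoters. ABCG40, an abscisic acid importer in the list of detoxification transporters, had 91.6, 143 and 114 under LD and 1384, 1345 and 2749 under CLL (log2 fold change -4.07, standard error 0.38, limma adjusted p = 0.000146) and passed in all 13 fits as the 1 of 10 members to pass. AOX1D and OM66, genes of mitochondrial retrograde signalling, fell, with log2 fold changes of -5.62 and -2.41, from 282, 267 and 714 and 400.1, 354 and 322 under CLL to 14.2, 1.76 and 16.7 and 61.9, 77.4 and 57.1 under LD, and were lost without 50, 52, 70, 68 with 69, 47, 65, 66 and 67 (adjusted p up to 0.0669) and without 50, 52, 70 and 68 with 69 (adjusted p up to 0.0427). They were 2 of 8 in their list. Beside the counts of the lists in this paragraph, 1.67% of all genes were lower by limma.

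**Figure D4:**
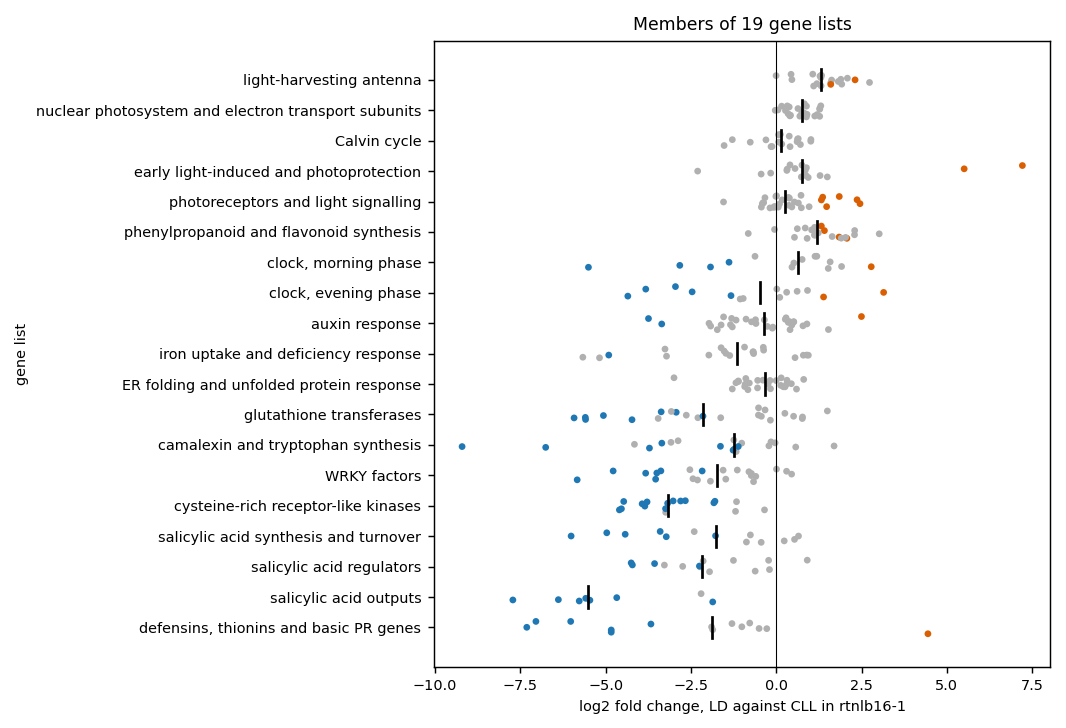
Log2 fold change of LD against CLL in *rtnlb16-1* (x axis) of every tested member of 19 gene lists (y axis), with members past an adjusted p under 0.01 in orange (higher) or blue (lower), the others in grey and the list median as a black bar. The salicylic acid outputs have a median of -5.53 and the light-harvesting antenna a median of 1.32, against -0.10 for all genes.

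Nutrient genes gave few limma calls and more with the count tests, as all genes did. Over all genes limma called 0.744% higher and 1.67% lower, edgeR 2.74% and 4.69%, and DESeq2 2.88% and 3.47%. bHLH39, an activator of iron uptake, had 3.87, 24.6 and 16.7 under LD and 1001, 1015 and 151 under CLL (log2 fold change -4.91, standard error 0.82, limma adjusted p = 0.00486), with library 70 far below libraries 68 and 69 and the call lost in 12 (adjusted p up to 0.119) of the 13 fits. Of the 20 genes of iron uptake and deficiency it was the 1 that passed, 16 had a negative log2 fold change, and the median was -1.15. edgeR called 10 lower and DESeq2 6. NEET, an iron-sulfur protein in the list of 8 iron storage genes, had 6570.1, 2785 and 5189 under LD and 485, 494 and 1367 under CLL (log2 fold change 2.48, standard error 0.45, limma adjusted p = 0.00796), with the call lost in each of the 13 fits. In that list edgeR called 4 higher and DESeq2 3. Of 10 sulfur assimilation genes 2 were lower by limma, 7 by edgeR and 5 by DESeq2, and all 10 were negative, with a median of -1.49. APR1, an adenylylsulfate reductase, had 1160.0, 1327 and 1479 under LD and 3788, 3781 and 4562 under CLL (log2 fold change -1.66, standard error 0.20, limma adjusted p = 0.000817) and passed in all 13 fits, while APR2 fell by 1.72 on the log2 scale, lost in 9 (adjusted p up to 0.0604) of the fits. Of 9 phosphate starvation genes SRG3, a glycerophosphodiesterase, fell, with 14.2, 16.7 and 33.3 under LD and 219, 249 and 186 under CLL (log2 fold change -3.32, standard error 0.55, limma adjusted p = 0.00476), lost without 50, 51, 52, 70, 68 with 69, 65, 66 and 67 (adjusted p up to 0.0657). It was the 1 of the 9 that passed limma, and edgeR called 5 lower and DESeq2 4.

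Growth hormone genes gave single calls. IAA17, a repressor of auxin response, had 5282, 1962 and 4586 under LD and 656, 638 and 637 under CLL (log2 fold change 2.49, standard error 0.38, limma adjusted p = 0.00276), lost without 50, 52, 70, 68 with 69, 65, 66 and 67 (adjusted p up to 0.0574). IAA6 and IAA29, further Aux/IAA repressors, were low, IAA6 with 2.58, 1.76 and 2.38 under LD and 38, 36.2 and 27.7 under CLL (log2 fold change -3.36, standard error 0.45, limma adjusted p = 0.00148) and in all 13 fits, IAA29 with 2.58, 2.64 and 0 under LD and 18.6, 25.2 and 42.5 under CLL (log2 fold change -3.75, standard error 0.67, limma adjusted p = 0.00684) and lost in each of the 13. The 31 auxin genes had a median of -0.35 in *rtnlb16-1*, with 1 higher and 2 lower. Their median in Col-0 was 2.1, with 17 higher and none lower, against 1.56% and 2.8% of all genes there. For 7 of the 31 the interaction passed, all negative, against 0.148% of all genes. These were IAA6, IAA14, IAA19, IAA29, PIN7, SAUR22 and SAUR23. GA2OX1, which inactivates gibberellin, had 68.4, 98.5 and 64.3 under LD and 10.8, 7.57 and 6.07 under CLL (log2 fold change 3.18, standard error 0.44, limma adjusted p = 0.00159) and passed in all 13 fits. BAS1, which inactivates brassinosteroids, had 29.7, 40.4 and 40.5 under LD and 119, 126 and 94.4 under CLL (log2 fold change -1.53, standard error 0.27, limma adjusted p = 0.00618), lost without 50, 52, 68 with 69, 47 and 66 (adjusted p up to 0.0158). ACS4, an ethylene synthesis enzyme, had 0, 0 and 1.19 under LD and 37.3, 33.7 and 27.7 under CLL (log2 fold change -4.64, standard error 0.59, limma adjusted p = 0.00114), lost without 68 with 69 (adjusted p up to 0.0166). ARR16, a response regulator of cytokinin, fell by 1.55 on the log2 scale, lost in 11 (adjusted p up to 0.0614) of the fits.

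In stress lists GolS1, galactinol synthase, had 387, 413 and 539 under LD and 149, 117 and 209 under CLL and rose by 1.4, the 1 of 20 cold and dehydration genes to pass, lost in 12 (adjusted p up to 0.0731) of the fits. HSP90.1 had 77.4, 207 and 169 under LD and 787, 769.8 and 986 under CLL (log2 fold change -2.64, standard error 0.39, limma adjusted p = 0.00248), the 1 of 16 heat shock genes to pass, lost without 52, 70, 68 with 69, 65, 66 and 67 (adjusted p up to 0.0474). Of 22 abscisic acid genes none passed limma. Of these 6 were higher and 2 lower at p under 0.05 before adjustment, edgeR called 1 higher and 1 lower and DESeq2 2 higher and 1 lower. Over all genes 9.21% were higher and 13.7% lower at that limma threshold before adjustment. Of 16 senescence genes none passed limma, with 1 higher and 4 lower at p under 0.05 before adjustment, 1 higher and 4 lower in edgeR and 3 lower in DESeq2.

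Besides the reticulon-like family, the lists tied to the ER were those of folding and of ER bodies. Of 26 genes of ER folding and the unfolded protein response none passed limma, 8 were lower at an unadjusted p under 0.05, edgeR called 4 lower and DESeq2 2 lower, and the median was -0.32. CNX1, the lectin chaperone calnexin, had 2938, 3528 and 5199 under LD and 6035, 6332 and 4922 under CLL and a log2 fold change of -0.55 (limma adjusted p = 0.299). In Col-0, where 1.56% of all genes were higher and 2.8% lower at an adjusted p under 0.01, 10 of the 26 were lower. Their median there was -1.28, and the interaction passed for none of them. Of 15 genes of ER bodies and jacalin lectins none passed limma in *rtnlb16-1*, with 2 higher and 4 lower at p under 0.05 before adjustment, 2 higher and 3 lower in edgeR and 3 lower in DESeq2. BGLU18, an ER body glucosidase, had 3107, 3317 and 4021 under LD and 7836, 7764 and 5812 under CLL. In Col-0 7 of the 15 were lower, and the interaction passed with a positive sign (0.0691% of all genes) for PYK10, the main ER body glucosidase, and JAL22. PYK10 changed by 0.98 in *rtnlb16-1* and -7.67 in Col-0 (interaction 8.64 on the log2 scale, limma adjusted p = 0.00438), and JAL22 by 1.2 and -6.46 (interaction 7.66 on the log2 scale, limma adjusted p = 0.000848). Of 16 genes of plasmodesmata and callose none passed limma, with 2 higher and 4 lower at p under 0.05 before adjustment and 2 lower in edgeR and in DESeq2. Beside the counts before adjustment in this paragraph, 9.21% of all genes were higher and 13.7% lower at that threshold.

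Other lists with no call by limma were superoxide dismutases, catalases and peroxidases (17 genes), cell cycle and DNA replication (29), expansins and xyloglucan enzymes (19) and cuticular wax and lipid transfer (14). At an unadjusted p under 0.05 they had 5 higher and 1 lower, 2 and 2, 5 and 1, and 3 and 2 genes. Of all genes 9.21% were higher and 13.7% lower at that threshold. edgeR called 1 higher and none lower, 1 and 1, 4 and 1, and 3 and 1, and DESeq2 2 and none, 1 and none, 4 and none, and 2 and none, in the same order. CAT2, the main leaf catalase, had 56883, 58401 and 57466 under LD and 38281, 37814 and 39076 under CLL.

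Several genes outside the lists had large changes. THI2.2 apart, A7 had 74.8, 75.6 and 127 under LD and 0, 0 and 0 under CLL, at least 42.5-fold higher under LD against a floor of 3 reads per library (limma adjusted p = 3.93e-05), and passed in all 13 fits. In Col-0 its normalized counts were 0, 0 and 0 under LD and 1.15, 0 and 0 under CLL. AT1G47980 had 289, 86.2 and 208 under LD and 0, 0.841 and 1.35 under CLL (log2 fold change 6.58, standard error 0.83, limma adjusted p = 0.00106), lost without 50, 70 and 68 with 69 (adjusted p up to 0.0247). UMAMIT42, of a family of amino acid transporters, had 277, 179 and 158 under LD and 25.8, 18.5 and 30.4 under CLL (log2 fold change 2.89, standard error 0.37, limma adjusted p = 0.00118) and passed in all 13 fits. AT2G29370, AT2G32490 and AT3G30460 rose by 3.173, 2.83 and 2.82, lost in 12 (adjusted p up to 0.0735), 7 (adjusted p up to 0.0262) and 12 (adjusted p up to 0.116) of the fits. On the lower side AT1G57630 had 3.87, 1.76 and 5.95 under LD and 250.2, 265 and 417 under CLL (log2 fold change -6.18, standard error 0.62, limma adjusted p = 0.000232) and passed in all 13 fits. AT5G61160, the phosphate carrier PHT3;2 and the methyltransferase PXMT1 fell, with log2 fold changes of -6.31, -6.24 and -6.14, lost without 70 and 68 with 69 (adjusted p up to 0.0267), without 70 and 68 with 69 (adjusted p up to 0.0223) and without 50, 52, 70 and 68 with 69 (adjusted p up to 0.032).

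Among abundant transcripts RD21A, a papain-like cysteine protease, had 36185, 37608 and 32903 under LD and 12865, 12844 and 14757 under CLL (log2 fold change 1.37, standard error 0.22, limma adjusted p = 0.00428), lost without 50 (adjusted p up to 0.0106). FAD2, the oleate desaturase of the ER, rose by 1.69 from 9917, 9886 and 11870.0 to 40529, 26484 and 40108, and RSR4 by 1.71 from 11768, 11896 and 11726 to 57309, 29397 and 33790.3. They were lost in 8 (adjusted p up to 0.0493) and 12 (adjusted p up to 0.0657) of the fits. The most abundant lower DEGs were AT2G25510 with 2601, 1505 and 2118 under LD and 29384, 30001 and 16364 under CLL and AT5G42530 with 2650.2, 1446 and 2369 under LD and 24203, 23945 and 14311 under CLL. They fell, with log2 fold changes of -3.44 and -3.15, and were lost only without libraries 68 and 69 together (adjusted p up to 0.0171). In both genes library 70 lay below libraries 68 and 69 and above all LD libraries. OEP6 and AT2G41090 fell, with log2 fold changes of -2.27 and -3.20, lost without 50, 51, 52, 68 with 69 and 67 (adjusted p up to 0.0484) and without 50, 51, 52 and 68 with 69 (adjusted p up to 0.0431).

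The change between the regimes in *rtnlb16-1* was set against that in Col-0 by the interaction. It passed for 66 genes, 21 positive and 45 negative (0.217% of all genes tested), and for 31 of the 727 DEGs (4.26%). The DEGs were chosen for a large change in *rtnlb16-1*, a term of the interaction, so these shares are not independent. In Col-0 8 of 20 antenna genes were higher (median 1.65). Lower there were 11 of 17 cysteine-rich receptor-like kinases (median -2.21) and 8 of 22 WRKY factors (-1.88). So were 6 of 13 salicylic acid synthesis and turnover genes (-1.59). Of 14 defensin, thionin and basic PR genes 1 was higher and 6 lower. Of 22 phenylpropanoid and flavonoid genes 2 were higher and 4 lower. Over all genes 1.56% were higher and 2.8% lower, and the interaction passed for no gene of these lists. GBF6, a bZIP factor whose translation responds to sucrose, rose in *rtnlb16-1* with 4319.9, 3569 and 3575 under LD and 1478, 1457 and 1628 under CLL (log2 fold change 1.299, standard error 0.19, limma adjusted p = 0.00204) and changed by -2.54 in Col-0, from 123, 134 and 166 under LD and 876, 791 and 791 under CLL (interaction 3.84 on the log2 scale, limma adjusted p = 0.000143). AT4G08555 had 7112, 5176 and 8702 under LD and 931, 835 and 1406 under CLL and changed by 2.62 and -1.36 (interaction 3.98 on the log2 scale, limma adjusted p = 0.00304). AT5G13380 was at 0 under CLL and 31, 33.4 and 57.1 under LD (interaction 5.32 on the log2 scale, limma adjusted p = 0.000848). In the reverse direction RGF7, a peptide of the root growth factor family, was at 0 under LD and 25.1, 28.6 and 35.1 under CLL (interaction -4.77 on the log2 scale, limma adjusted p = 0.000848). AT5G02760 had 16.8, 17.58 and 25 under LD and 268, 267 and 209 under CLL and GASA6, of the gibberellin-regulated peptides, had 834, 658 and 1158 under LD and 2677, 2506 and 2953 under CLL. They changed by -3.54 and -1.69 in *rtnlb16-1* and by 2.32 and 2.26 in Col-0. The *rtnlb16-1* call of GASA6 was lost in 10 (adjusted p up to 0.0683) of the fits and that of AT4G08555 without 50, 52 and 68 with 69 (adjusted p up to 0.0321). AT3G15356, a legume lectin gene, had 253, 254 and 204 under LD and 6403, 6321 and 5496 under CLL (log2 fold change -4.64, standard error 0.21, limma adjusted p = 1.12e-06) and passed in all 13 fits. For the SWEET12 fall the interaction of -1.69 did not pass (limma adjusted p = 0.0365), and for ELIP2 it was 2.08 (limma adjusted p = 0.155). The 66 rest on few samples, since the count was 10 without library 65 and 1217 without library 70, and edgeR gave 972 and DESeq2 643.

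**Figure D5:**
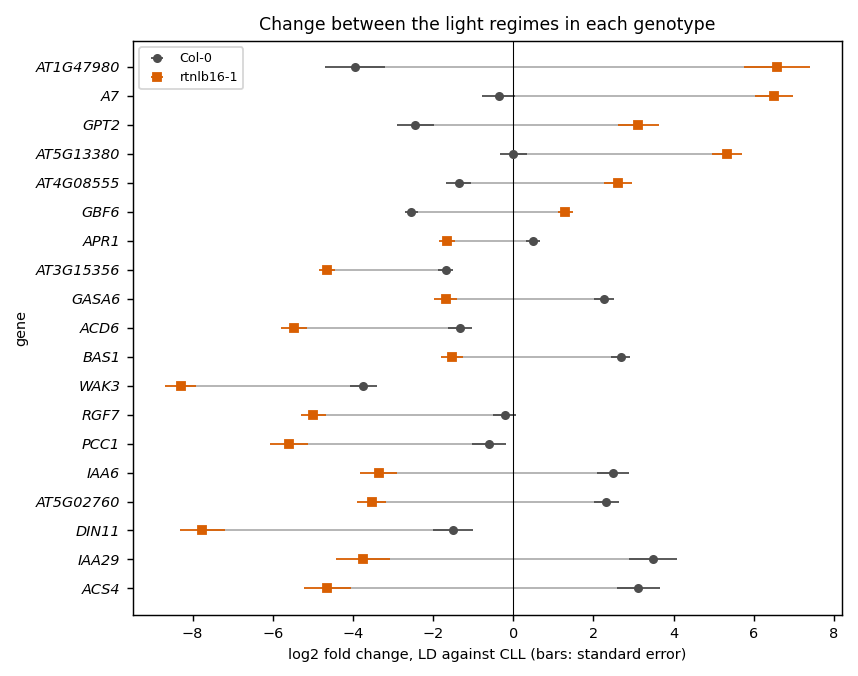
Log2 fold change of LD against CLL (x axis) in Col-0 (circles) and in *rtnlb16-1* (squares) for the 19 named DEGs whose interaction passed (y axis), with bars for the standard error from limma. GBF6 lies at -2.54 in Col-0 and 1.299 in *rtnlb16-1*, with opposite signs.

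Markers of other tissues did not pass the test in any of their 6 lists, by limma, edgeR or DESeq2, except KAT1 in guard cells, which edgeR and DESeq2 called lower. At p under 0.05 before adjustment, 1 gene each of the pollen, guard cell and xylem lists was lower, against 13.7% of all genes. The 12 shoot meristem and flower markers summed to 775, 848 and 1456 under LD and 797, 755 and 586 under CLL. STM, the meristem homeobox gene, had 351, 169.7 and 426 under LD and 183, 184 and 205 under CLL and SEP3, a floral MADS gene, 105, 126 and 211 under LD and 105, 95.1 and 36.4 under CLL, and the LD libraries overlapped the CLL libraries in all 12 markers. The 5 guard cell markers summed to 440.0, 1268 and 671 under LD and 1426, 1412 and 974 under CLL, with KAT1 at 61.9, 176 and 58.3 under LD and 412, 436 and 289 under CLL, and the 4 xylem markers to 615, 722 and 629.8 under LD and 679.7, 665 and 946 under CLL. Root hair markers summed to at most 13.2, the pollen marker PPME1 was at 0 in all 6 libraries and VGD1 at most at 5.05, and seed storage markers summed to at most 10.5. For the leaf label, the Calvin cycle genes took 4.50% to 5.86% of each library, beside the share of the antenna genes given above. The part of these other tissues in the changes above was not tested, and in bulk leaves fewer cells of a type and less RNA per cell cannot be told apart.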

How the data were processed

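Leaf RNA of 12 libraries was sequenced on 1 lane. The authors aligned the reads with STAR 2.5.0a to TAIR10 (annotation Araport11), counted them per gene with HTSeq 0.6.1p1 and deposited a signal per gene, the count of a library over its DESeq2 size factor (version not given in the sources used here). All values above 0 came out as whole reads within a relative tolerance of 1e-06, and these reads entered the count tests. TAIR10.1, in which 37051 gene IDs were found, gave names, coordinates and promoters.

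Log2 values with a pseudocount of 1 were fitted with limma 3.58.1 (R 4.3.3) on 4 group means with a trended prior, with libraries 68 and 69 averaged, over the 30388 genes with reads. The interaction of genotype and light came from the same fit. The alternatives treated libraries 68 and 69 as 2 samples, used pseudocounts of 0.5 and 5, kept only genes that reach 10 in 3 or more libraries, scaled by TMM or upper quartiles, made the prior robust, fitted the *rtnlb16-1* samples alone, ran edgeR 4.0.16 and DESeq2 1.42.0 on the reads, moved the thresholds, or left out a library. The code was tested on simulated counts.

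The members and lists were chosen with earlier results of these data known. Of 888 entries in 57 lists 16 were dropped, 15 chloroplast genes not found under their ID in the annotation used here and 1 whose symbol belongs to another gene, which left 56 lists with 862 tested genes. In a list, genes count as higher or lower when the adjusted p is under 0.01, whatever the fold. Named by rule were RTNLB16, MSD1 and ACT2, per direction the 12 largest DEGs (mean 50 or more, groups not overlapping), the 5 most abundant DEGs and the 5 DEGs with the smallest interaction p, and per list up to 5 members past the threshold by size of change, or else the most abundant member. Other list members given with a value were chosen after their values were seen. Tables and figures were made with Python 3.11.15, pandas 2.3.3, numpy 2.4.6, scipy 1.17.1 and matplotlib 3.10.9.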

Additional observations from a re-analysis of the deposited data

Results flagged for a closer look

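For 19 of the named DEGs the change from CLL to LD in *rtnlb16-1* differed from that in Col-0 by a test of the difference itself, the limma interaction with an adjusted p under 0.01, which 0.217% of all genes passed. The interaction is the log2 fold change in *rtnlb16-1* minus that in Col-0. The positive values were AT1G47980 at 10.53, A7 at 6.87, GPT2 at 5.56, AT5G13380 at 5.32, AT4G08555 at 3.98 and GBF6 at 3.84. Among salicylic acid outputs and receptor kinases they were PCC1 at -4.98, ACD6 at -4.13 and WAK3 at -4.56, and among growth hormone genes ACS4 at -7.76, IAA29 at -7.24, IAA6 at -5.85, BAS1 at -4.22 and GASA6 at -3.94. The other negative values were DIN11 at -6.26, AT5G02760 at -5.86, RGF7 at -4.77, AT3G15356 at -2.96 and APR1 at -2.15. In Col-0 the change had the opposite sign, as a fitted value, for AT1G47980 (-3.95), A7 (-0.37), GPT2 (-2.44), AT4G08555 (-1.36), GBF6 (-2.54), ACS4 (3.12), IAA29 (3.49), IAA6 (2.49), BAS1 (2.68), GASA6 (2.26), AT5G02760 (2.32) and APR1 (0.49). The interaction passed in all 13 leave-one-out fits for A7, GBF6, AT5G13380, AT5G02760, BAS1 and RGF7. It was lost in 2 to 12 of the fits for the other 13 genes, with an adjusted p of at most 0.0469. It was lost in 12 of them for GPT2 and PCC1. The named rule chose 10 of these genes, 5 per direction, for a small interaction p. The others were named for a large change in *rtnlb16-1*, which is itself a term of the interaction. The interactions of all 19 are therefore a description, and the share of all genes is no independent comparison for them.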

How the results depend on the processing

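The count of DEGs (727) was 1582 with libraries 68 and 69 as 2 samples, 249 with the *rtnlb16-1* samples alone, 2233 with edgeR, 1687 with DESeq2, 1786 at an adjusted p under 0.05 and 2493 at an unadjusted p under 0.01. It was 320 to 672 with 1 library left out and 526 without libraries 68 and 69. The share of higher DEGs was 30.1%, 41.9% with DESeq2, 17.5% without libraries 68 and 69 and 6.4% with the *rtnlb16-1* samples alone. Fewer samples and fewer degrees of freedom enter these last fits than the main fit. The cause of the differences was not tested. TMM scaling gave 748 and upper-quartile scaling 731 DEGs, with a median over all genes of -0.15 and -0.09.

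The count of genes past the interaction (66) was 282 with libraries 68 and 69 as 2 samples, 143 with the filter on low values, 972 with edgeR and 643 with DESeq2, and 10 to 1217 with 1 library left out. It was 979 without libraries 68 and 69, which like the fit without library 70 (1217) leaves 1 CLL sample that is assumed to vary like the other groups. Members of the lists that were higher (28) numbered 70 with libraries 68 and 69 as 2 samples, 45 with the filter, 98 with edgeR, 96 with DESeq2, 2 with the *rtnlb16-1* samples alone, 10 without libraries 68 and 69 and 8 to 24 with 1 library left out. Members that were lower (96) numbered 154 with libraries 68 and 69 as 2 samples, 197 with edgeR, 168 with DESeq2, 9 with the *rtnlb16-1* samples alone, 42 without libraries 68 and 69 and 46 to 87 with 1 library left out.

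The log2 fold change of RTNLB16 was 2.05 to 2.46 with 1 library left out and 2.32 with its own line's samples alone, where it missed the threshold, as it did without library 70. Among genes that passed no test, the sign turned for 4. GGT1 was -0.30 to 0.014 with 1 library left out. NYC1 was -0.12 to 0.44, with -0.37 without libraries 68 and 69, -0.016 with TMM and -0.012 with edgeR. TSO2 was -0.27 to 0.21, with -0.091 with libraries 68 and 69 as 2 samples, -0.050 with TMM and -0.032 with edgeR. LAC4 was -0.050 to 0.65, with -0.49 without libraries 68 and 69, -0.027 with edgeR and -0.0021 with DESeq2. No paired analysis was possible because each library carries a number of its own that no library of another group shares. At this depth the calls below a mean of 10 normalized counts were the least stable between tools, with 25 of 107 lower DEGs called by edgeR.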
